A study of Bos taurus with 25 samples.

Results

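The genes described are metallothioneins and genes that sense or carry zinc, measured in hepatic and mammary tissue of lactating dairy cows. The listed names were MT1A, MT1E, MT2A, MTF1, SLC30A1 and SLC39A14, and every probe whose array name led to one of them was taken. This gave 12 of the 43653 probes on the array, which belong to 6 genes. MT1A had 1 probe, MT2A had 2, MTF1 had 2 and SLC39A14 had 5. MT1E is carried today as an older name by 3 genes, MT1A itself and the loci LOC613358 and LOC768319, each of these loci with 1 probe. SLC30A1 had no probe under its listed accessions and is not described further. The list was drawn up because MT1A was lower in hepatic tissue with vitamin B12 and with both vitamins, so the values of those 2 comparisons are given for every member as a description, without a test.

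The animals were 13 multiparous Holstein cows, and 12 of them gave both tissues. All received weekly intramuscular injections of 5 mL from before calving onward, and biopsies were taken 64 ± 3 days after calving. Control cows received saline, B9 cows 320 mg of pteroylmonoglutamic acid (vitamin B9), B12 cows 10 mg of cyanocobalamin (vitamin B12), and B9 + B12 cows both doses. Hepatic arrays numbered 3 for control, 3 for B9, 4 for B12 and 2 for B9 + B12, mammary arrays 3, 3, 4 and 3 in the same order, and each array held the RNA of 1 cow. A biopsy holds several cell types, so fewer cells of a type and less RNA per cell cannot be told apart.

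Metallothioneins are small proteins rich in cysteine that bind zinc and copper ions. In the liver their transcripts are known to rise with zinc, with glucocorticoids and in inflammation, and they store and buffer the metal. MTF1 is the transcription factor that senses free zinc and drives metallothionein genes. SLC39A14 (ZIP14) carries zinc and non-transferrin-bound iron into hepatocytes and is known as an acute phase transporter.

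In the gene table used for names, MT1A, LOC768319, LOC613358, MT2A, MT3 and MT4 follow each other in this order. The coding sequences of such neighbours are alike, and how far a probe also bound the RNA of another gene of the cluster was not tested. The primers designed in the study for MT1A are shown because they define the transcript that its authors chose to follow, and their PCR values are not used here.
MT1A forward primer: tgtgggctgtgccaagtgt
MT1A reverse primer: tctattgacaactagggcaggttct

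Each value is a fluorescence intensity on the log2 scale after background correction and quantile normalization within the tissue, so that 1 unit is a 2-fold change. Where a gene had more than 1 probe, the values given are those of its brightest probe in that tissue, unless another is named. No level is compared between probes. Between 71.2% and 84.2% of all probes were well above background on the hepatic arrays, and between 64.4% and 76.5% on the mammary arrays. The hepatic arrays of cow 57 (B9) and cow 32 (B9 + B12) stood apart, with a median correlation with the other hepatic arrays of 0.972 and 0.973 against a median of 0.991 over the tissue. All 9 hepatocyte markers, such as albumin and apolipoproteins, were well above background on every hepatic array, and all 9 mammary epithelium markers, such as caseins, on every mammary array. The mammary epithelium markers were also well above background on every hepatic array. Of them, 1 (KRT18) was higher in hepatic than in mammary tissue, by 3.31 with both tissues normalized together.

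MT1A was the member for which the list was made, and its hepatic intensities separated the cows given B12 from the control cows. The control cows 42, 43 and 51 had values of 17.02, 17.81 and 17.73. With B12, cows 36, 37, 40 and 52 had 16.12, 16.82, 15.51 and 14.65. With B9 + B12, cows 32 and 38 had 15.33 and 13.24. All 6 arrays of the groups that received B12 were thus below the lowest control array, and cow 38 was the lowest of all hepatic arrays. The difference from the control mean was −1.75 with B12 (standard error 0.62, a 3.35-fold lower mean) and −3.23 with B9 + B12 (standard error 0.74, a 9.41-fold lower mean). Both comparisons use the same control arrays. Without cow 38, which leaves cow 32 as the only array of its group, the B9 + B12 difference was −2.19, and without cow 32 it was −4.28. In the authors' own processed table the corresponding differences were −1.73 and −3.27.

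The hepatic values of LOC613358, a metallothionein locus of the MT1 type, were 16.84, 17.41 and 17.17 in control cows 42, 43 and 51. With B12 they were 15.45, 16.90, 14.96 and 14.80 in cows 36, 37, 40 and 52. With B9 + B12 they were 14.80 in cow 32 and 12.73 in cow 38. Cow 37 lay between the control cows 42 and 51, and the other 5 arrays of cows given B12 lay below all control arrays. The difference was −1.61 with B12 (standard error 0.56) and −3.37 with B9 + B12 (standard error 0.67). Without cow 38 the B9 + B12 difference was −2.34, and without cow 32 it was −4.41.

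The other locus that carries the name MT1E, LOC768319, had control values of 11.85, 13.50 and 12.92 in cows 42, 43 and 51. With B12, the cows 36, 37, 40 and 52 had 11.68, 12.95, 11.43 and 10.88. With B9 + B12, cow 32 had 10.57 and cow 38 had 9.61. Here cow 37 again lay within the range of the control cows. The difference was −1.02 with B12 (standard error 0.68) and −2.67 with B9 + B12 (standard error 0.81). Without control cow 43 the B12 difference was −0.65, and without control cow 42 it was −1.48.

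MT2A, the metallothionein of the MT2 type, had control values of 13.90, 14.49 and 14.08 in cows 42, 43 and 51. With B12 it had 11.67, 13.55, 13.03 and 11.43 in cows 36, 37, 40 and 52. With B9 + B12 it had 13.87 in cow 32 and 11.06 in cow 38. The value of cow 32 was just under the lowest control value, whereas cow 38 was far from it. The difference was −1.73 with B12 (standard error 0.84) and −1.69 with B9 + B12 (standard error 1.01), and the second probe of MT2A gave −1.77 and −1.75. Without cow 38 the B9 + B12 difference of MT2A was −0.29, and without cow 32 it was −3.09.

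**Figure D1:**
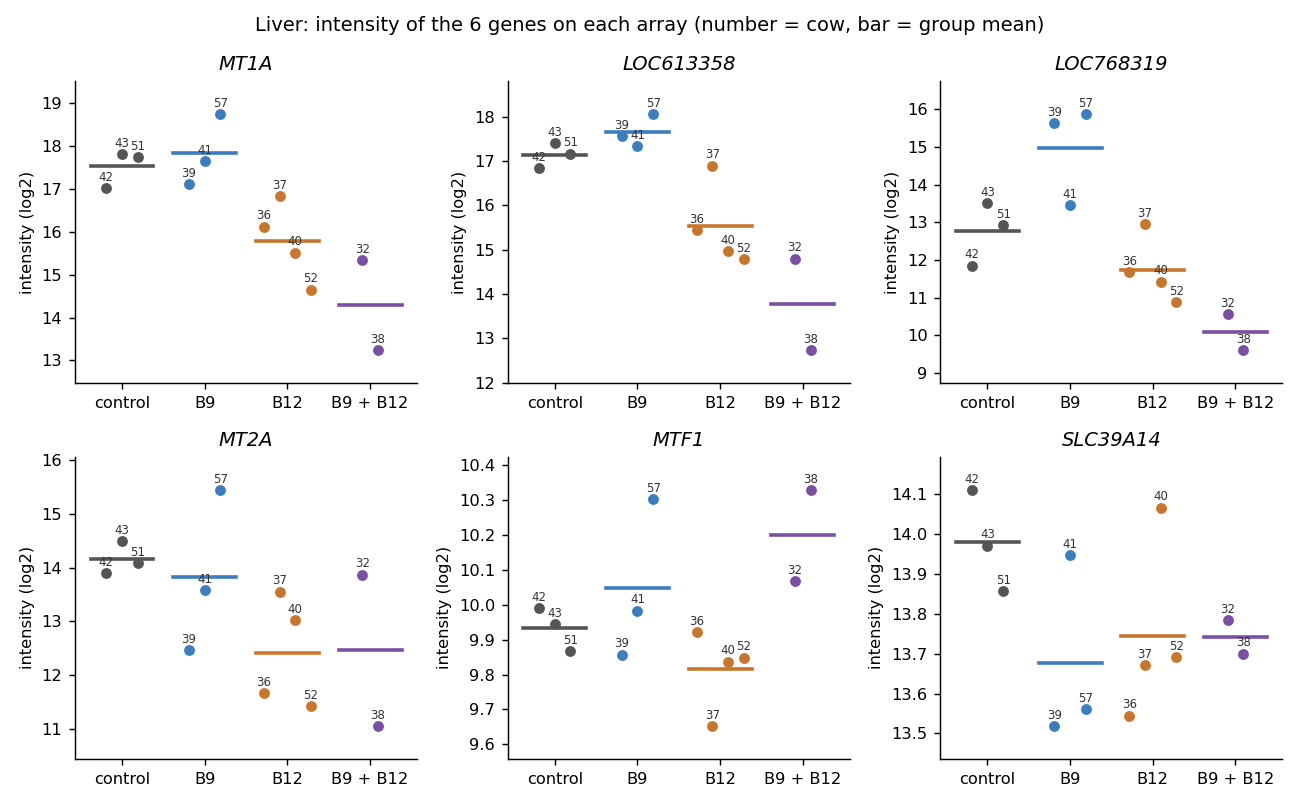
Hepatic intensity (log2) of the brightest probe of each of the 6 genes on each of the 12 arrays, by treatment; the number beside a point is the cow and the bar is the group mean. The vertical axis differs between genes. MT1A lies between 17.02 and 17.81 in control cows and between 13.24 and 16.82 in the cows given B12, while MTF1 and SLC39A14 span less than 1 unit over all arrays.

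Counted over the 12 probes, 3 lay below all control arrays with B12, and all 3 were metallothionein probes (1 of MT1A and 2 of MT2A). Of all probes on the array, 2.55% lay below all controls in this comparison and 2.43% above them. With B9 + B12, 6 probes lay below all control arrays, among them the 5 metallothionein probes, against 9.84% of all probes, and 1 probe, of MTF1, lay above all controls, against 12.0%. Since the list was chosen on these comparisons, nothing is read from those shares.

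The highest metallothionein value of each of these groups came from the same slide. Slide 8, the slide scanned on the second of 2 days, held the hepatic arrays of cows 43 (control), 37 (B12) and 32 (B9 + B12). Each was the highest of its group for all 4 metallothionein genes. These arrays also had the lowest median ratio of signal to local background in hepatic tissue. It was 3.6, 3.2 and 2.3 for cows 43, 37 and 32, and 5.3 to 10.5 on the other hepatic arrays. The part of this in the values was not tested. Within slide 8, the MT1A difference was −0.99 for the B12 cow and −2.48 for the cow given both vitamins. On slide 1 the B12 cow 40 differed from control cow 51 by −2.22, and on slide 4 the B9 + B12 cow 38 differed from control cow 42 by −3.78. Without the 3 arrays of slide 8, the difference of MT1A was −1.95 with B12 and, with cow 38 alone in its group, −4.13 with B9 + B12.

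The zinc sensor MTF1 varied little in hepatic tissue. Its control values were 9.99, 9.94 and 9.87 in cows 42, 43 and 51, and all 12 hepatic values lay between 9.65 and 10.33. Its difference from the control mean was −0.12 with B12 (standard error 0.11) and 0.26 with B9 + B12 (standard error 0.14). Its second probe, well above background on 8 of 12 hepatic arrays, gave 0.10 and −0.01.

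The zinc importer SLC39A14 had hepatic control values of 14.11, 13.97 and 13.86 in cows 42, 43 and 51. Over the 12 hepatic arrays its values lay between 13.52 and 14.11. The difference was −0.24 both with B12 (standard error 0.14) and with B9 + B12 (standard error 0.17). The other 4 probes of SLC39A14 gave between −0.37 and −0.19 with B12 and between −0.17 and −0.00042 with B9 + B12. These differences are small beside those of the metallothioneins and are not compared with them by a test.

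The lists of zinc transporters around the members showed no shift of that size in the 2 hepatic comparisons that the rule used, and they too are given as a description. The zinc exporters of the SLC30A family, of which 6 of 10 listed genes were measured, had differences between −0.20 and 0.10 with B12 (median 0.01) and between −0.47 and −0.07 with B9 + B12 (median −0.20). The zinc importers of the SLC39A family, 10 of 14 listed genes with SLC39A14 among them, had differences between −0.24 (SLC39A14) and 0.30 (SLC39A4) with B12 (median −0.03) and between −0.24 (SLC39A14) and 0.84 (SLC39A4) with B9 + B12 (median 0.19). The median over all probes was 0.00073 and 0.017. Of the 2 remaining metallothionein genes on the array, MT4 was not well above background on any hepatic array, and MT3, the brain type, had 0.07 with B12 and 0.64 with B9 + B12.

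Genes that respond to known inducers of metallothioneins are given here without a test. Of 16 acute phase genes, 6 were lower than the control mean with B9 (median 0.02), 15 with B12 (median −0.23) and 11 with B9 + B12 (median −0.09). The differences ran from −0.68 (SAA4) to 0.05 (ORM1) with B12 and from −1.31 (HP, haptoglobin) to 0.65 (IL6R) with B9 + B12. Of 11 genes responsive to glucocorticoids, 8 were lower with B9 (median −0.25), 9 with B12 (median −0.24) and 5 with B9 + B12 (median 0.10). The summed level of 9 hepatocyte markers ranged from 20.73 to 20.88 in control cows, from 20.74 to 20.79 with B9, from 20.78 to 20.92 with B12 and from 20.89 to 20.94 with B9 + B12. That of 7 muscle markers, 5 of which were well above background on all hepatic arrays, ranged from 12.35 to 13.72 in control cows, from 11.10 to 11.80 with B9, from 10.82 to 12.79 with B12 and from 11.43 to 12.12 with B9 + B12. The lowest difference among these markers was that of MYOM1, with −2.45 in B9, −2.36 in B12 and −1.78 in B9 + B12, while 5 of the 7 markers were higher than in control cows with B9 (median 0.20) and with B9 + B12 (median 0.08), and 2 with B12 (median −0.05). That of 9 mammary epithelium markers, all well above background on every hepatic array, ranged from 14.81 to 15.43 in control cows, from 15.27 to 15.70 with B9, from 14.98 to 16.53 with B12 and from 14.91 to 15.63 with B9 + B12. With each treatment 8 of these 9 markers were higher than in control cows, with a median difference of 0.61 with B9, 1.51 with B12, where the highest was CSN1S1 (2.05), and 0.50 with B9 + B12. The part of these lists in the metallothionein values was not tested.

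The rule did not use the hepatic B9 arrays, and the members were tested there. The control arrays, however, are those of the comparisons that the rule used, so this test is not independent of them. Limma, fitted on all 12 hepatic arrays, called 0 of the 12 probes and 0% of all probes, where a call needed an adjusted p of 0.05 or less together with a 2-fold change. No member probe had all 3 B9 arrays below all control arrays (4.14% of all probes did) or above them (4.30%). At an unadjusted p under 0.05 there was 1 of the 12 probes, against 3.54% of all probes, and Cyber-T, the test named in the methods, called 0 member probes and 0.0115% of all probes. MT1A had values of 17.10, 17.64 and 18.73 in cows 39, 41 and 57, which overlap the control values, and a difference of 0.31 (standard error 0.67, adjusted p = 0.949 by limma). The difference was −0.15 without cow 57, whose array stood apart, and 1.98 with the slide as a fixed block. LOC613358 differed by 0.51 (standard error 0.60, and 1.5 under a fixed slide block), MT2A by −0.33 (standard error 0.90), MTF1 by 0.11 (standard error 0.12) and SLC39A14 by −0.30 (standard error 0.15), with adjusted p-values from 0.906 to 0.962 by limma. The MT2A difference was −1.13 without cow 57, 0.35 without cow 39 and 2.13 under a fixed slide block. The other 4 probes of SLC39A14 differed by −0.21 to 0.44, in both directions.

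LOC768319 was the probe at an unadjusted p under 0.05. With B9, cows 39, 41 and 57 had 15.63, 13.45 and 15.88 against control values of 11.85 to 13.50. Cow 41 lay just inside the control range and the other two more than 2 units above it. The difference was 2.23 (standard error 0.73, unadjusted p = 0.0124, adjusted p = 0.906 by limma). The exact permutation test over arrays, two-sided, gave p = 0.2, where 3 arrays against 3 cannot go below 0.1. Over all settings tried the difference lay between 1.77 and 3.78 and was never called. Without cow 57 it was 1.78. On slide 4, the slide that held a B9 and a control hepatic array, cow 57 exceeded cow 42 by 4.02. The B9 effect on LOC768319 in hepatic tissue minus that in the mammary gland was 2.00 (standard error 0.74, adjusted p = 1.00 by limma).

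**Figure D2:**
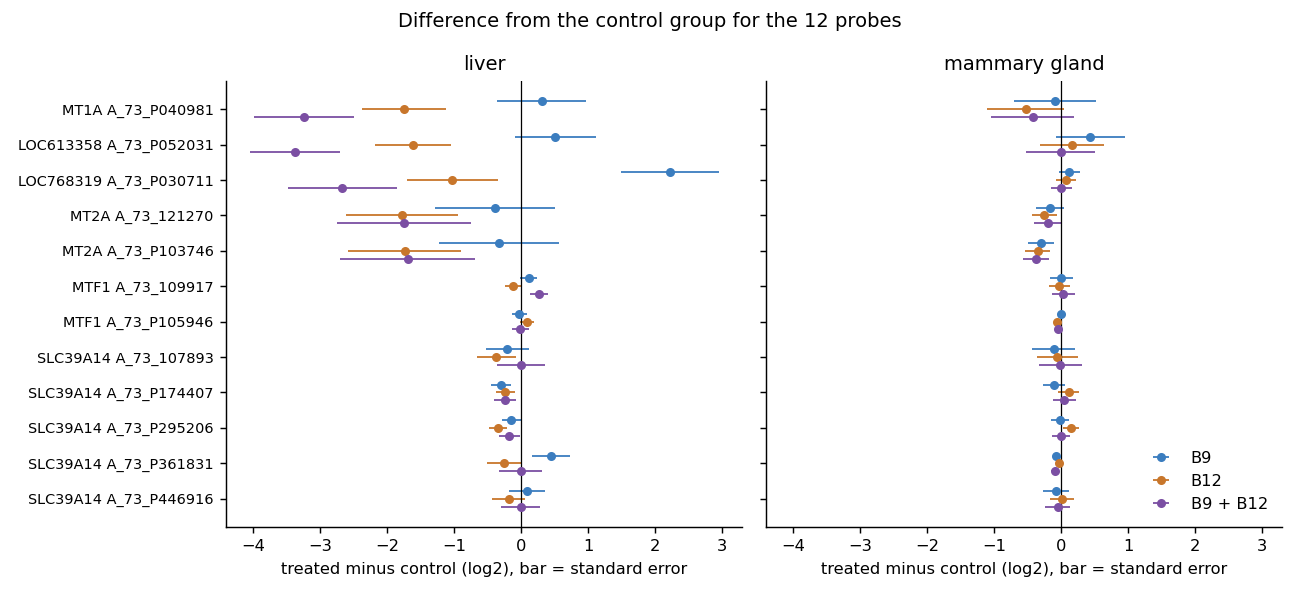
Difference from the control group (log2) for each of the 12 probes with each treatment in hepatic tissue (left) and in the mammary gland (right), on the same scale, with the standard error from limma as the bar. The hepatic B12 and B9 + B12 values are those on which the list was chosen. The 5 metallothionein probes reach from −3.37 to 2.23 in hepatic tissue and from −0.53 to 0.44 in the mammary gland. The probes of MTF1 and SLC39A14 stay between −0.37 and 0.44 in hepatic tissue. In the authors' table the mammary range of the 5 metallothionein probes was −0.63 to 0.48.

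Pooled over the 4 groups, arrays of cows on the same treatment differed more in the metallothioneins than in most genes. This SD within treatment groups in hepatic tissue was 0.90 for MT1A, 0.81 for LOC613358, 0.98 for LOC768319 and 1.22 for MT2A. The median SD over the 29636 probes that were well above background on every hepatic array was 0.247. The SD of MT1A was larger than that of 98.8% of these probes, and the SD of MT2A larger than that of 99.7%. MTF1, with 0.15, exceeded 18.5% of them, and the brightest probe of SLC39A14, with 0.19, exceeded 32.2%. Another SLC39A14 probe, with 0.18, exceeded 28.1%, but its remaining probes, with 0.35 to 0.42, exceeded 74.6% to 84.4%. The control group alone varied less, with an SD over 3 cows of 0.44 for MT1A, 0.28 for LOC613358, 0.84 for LOC768319 and 0.30 for MT2A. For MT2A the SD was 1.51 in the B9 group, 1.03 in the B12 group and 1.98 over the 2 cows given both vitamins.

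In the mammary gland the spread was widest among the member probes for MT1A and LOC613358. The SD within groups was 0.83 for MT1A and 0.69 for LOC613358, larger than that of 99.2% and 98.7% of the 27131 probes well above background on every mammary array. In the 3 control cows alone the SD of MT1A was 0.29. Over all groups, the SD within groups was 0.26 for MT2A and 0.21 for LOC768319, and the median over the 27131 probes was 0.171. The 2 MT2A probes exceeded 77.1% and 80.3% of those probes. The SD of MTF1 was 0.23 and that of SLC39A14 was 0.22, and another probe of SLC39A14 had 0.43, larger than that of 93.8%.

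**Figure D3:**
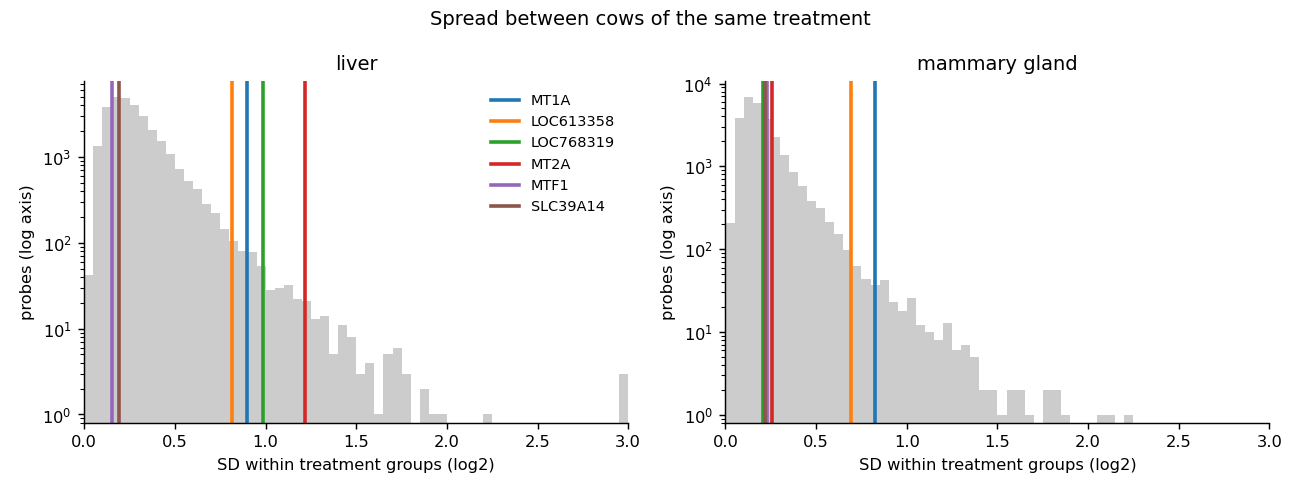
Number of probes (log axis) by their SD within treatment groups (log2) in hepatic tissue and in the mammary gland, for probes well above background on every array of the tissue, with coloured lines for the 6 genes and with SDs above the axis range counted in the last bar. In hepatic tissue the brightest probes of the 4 metallothioneins lie between 0.81 and 1.22 and those of MTF1 and SLC39A14 at 0.15 and 0.19. In the mammary gland MT1A and LOC613358 lie at 0.83 and 0.69, and the other 4 genes between 0.21 and 0.26.

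Deviations from group means were compared between MT1A and the other members across cows. Over the 12 hepatic arrays, MT1A had a correlation of 0.90 with LOC613358, of 0.86 with MT2A and of 0.65 with LOC768319. With MTF1 it was −0.10 and with SLC39A14 −0.16, where the other SLC39A14 probes gave −0.33 to 0.50. Over the 13 mammary arrays MT1A had 0.98 with LOC613358, 0.86 with MT2A and 0.80 with LOC768319, and −0.43 and −0.26 with MTF1 and SLC39A14. Without cows 39 and 40 the mammary correlations with MTF1 and SLC39A14 were −0.0066 and 0.18, and without cows 38 and 52 the hepatic ones were 0.13 and −0.33. For these brightest probes, the negative mammary values and the hepatic one of MTF1 thus rest on 2 arrays each. Other mammary SLC39A14 probes had −0.47, −0.61 and −0.64, and −0.02, −0.30 and −0.41 without cows 39 and 40. With the same cows left out, the correlations with the other metallothioneins were 0.58 to 0.84 in hepatic tissue and 0.76 to 0.97 in the mammary gland. These correlations are a description, over arrays that share their processing and brightness, and how far probes of the cluster share targets was not tested.

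Among named genes outside the list, those whose hepatic deviations were most like those of MT1A were ZNF335 with a correlation of 0.975, GRINA with 0.968, ZNF628 with 0.966, CDK10 with 0.962 and EIF3G with 0.960. ZNF335 and ZNF628 encode zinc finger proteins, CDK10 a cyclin-dependent kinase and EIF3G a subunit of a translation initiation factor. In the mammary gland they were HARS2 with 0.960, ERMARD with 0.959, UBE3C with 0.956, PRPF39 with 0.949 and GABPA with 0.948. HARS2 is a mitochondrial tRNA synthetase, UBE3C a ubiquitin ligase and PRPF39 a splicing factor. No gene was among the 5 in both tissues. Among the 29636 hepatic probes, counting the MT1A probe itself as 1, LOC613358 ranked 204, the MT2A probes 538 and 677, and LOC768319 4381, so that many other probes followed MT1A as closely. Among the 27131 mammary probes LOC613358 ranked 2, the MT2A probes 176 and 1000, and LOC768319 544.

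In mammary tissue MT1A was well above background on all 13 arrays and overlapped between the groups. Control cows 42, 43 and 51 had 8.56, 9.10 and 8.67. The values were 7.68, 8.87 and 9.50 with B9 in cows 39, 41 and 57, and 7.52, 9.35, 7.28 and 8.85 with B12 in cows 36, 37, 40 and 52. With B9 + B12, cows 31, 32 and 38 had 8.54, 7.50 and 9.02. Each treated group thus held arrays below the control range, and the B9 and B12 groups also held an array above it. The differences were −0.09 with B9 (standard error 0.62), −0.53 with B12 (standard error 0.58) and −0.43 with B9 + B12 (standard error 0.62), and limma gave adjusted p-values of 1.00 for all 3. Single arrays moved these values. Leaving out 1 array, the B9 difference ran from −0.50 (without cow 57) to 0.41 (without cow 39) and the B12 difference from −0.90 (without cow 37) to −0.21 (without cow 40). The B9 + B12 difference ran from −0.76 (without cow 38) to 0.0013 (without cow 32), so that the sign was not settled with B9 or with B9 + B12.

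LOC613358 had mammary values of 7.73, 8.25 and 7.84 in control cows and between 7.19 and 9.19 over all 13 arrays. Its differences were 0.44 with B9 (standard error 0.52), 0.16 with B12 (standard error 0.48) and −0.01 with B9 + B12 (standard error 0.52). Without cow 37 the B12 difference was −0.20, without cow 32 the B9 + B12 difference was 0.37, and a fixed slide block gave −0.10 with B9 and −0.25 with B12. LOC768319 was dim in this tissue, between 6.11 and 6.77, and differed by 0.12, 0.08 and 0.01.

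MT2A was below the control mean with each treatment in the mammary gland, without passing the test. The control cows 42, 43 and 51 had 7.27, 7.01 and 7.23. The B9 cows 39, 41 and 57 had 6.55, 6.93 and 7.14, and the B12 cows 36, 37, 40 and 52 had 6.70, 6.99, 6.45 and 7.14. The B9 + B12 cows 31, 32 and 38 had 6.89, 6.56 and 6.97, all below the lowest control value. The differences were −0.30 (standard error 0.19), −0.35 (standard error 0.18) and −0.37 (standard error 0.19) in that order, with adjusted p-values of 1.00 by limma. Exact permutation tests, two-sided, gave p = 0.2 with B9, p = 0.143 with B12 and p = 0.1 with B9 + B12, the last being the smallest that 3 arrays against 3 allow. The 3 comparisons share their control arrays. The second probe of MT2A gave −0.17, −0.25 and −0.20. In the authors' own processed table the differences of the brightest probe were larger, at −0.42, −0.50 and −0.51.

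MTF1 differed by 0.00, −0.02 and 0.03 with B9, B12 and B9 + B12 in the mammary gland, with standard errors from 0.16 to 0.17. SLC39A14 differed by −0.10, 0.12 and 0.05 with standard errors from 0.16 to 0.17. In the 3 mammary comparisons limma called 0 of the 12 member probes and 0% of all probes. None of the 12 was at an unadjusted p under 0.05, where 2.55%, 2.28% and 1.95% of all probes were. By Cyber-T, 0 member probes were called, against 0.0115%, 0.0229% and 0.0137% of all probes. With B9 + B12, 2 of the 12 probes lay below all control arrays, 1 of MT2A and 1 of SLC39A14, against 3.47% of all probes, and 0 lay above them, against 3.43%. With B9 and with B12, 0 of the 12 lay below or above all control arrays, against 3.16% and 3.84% of all probes with B9 and 1.61% and 2.27% with B12.

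Mammary values were set beside the brightness of the arrays. Across the 13 arrays the correlation with the percentage of probes well above background was 0.68 for MT1A, 0.62 for LOC613358, 0.55 for MT2A and 0.32 for LOC768319, and −0.55 for MTF1. In the 12 hepatic arrays it was 0.12 for MT1A. The part of array brightness in the mammary values was not tested. Within slides, the mammary MT1A difference from the control array was −0.25 and −1.40 for 2 B12 cows, −0.99 for a B9 cow, and −1.60, 0.35 and −0.03 for 3 B9 + B12 cows.

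**Figure D4:**
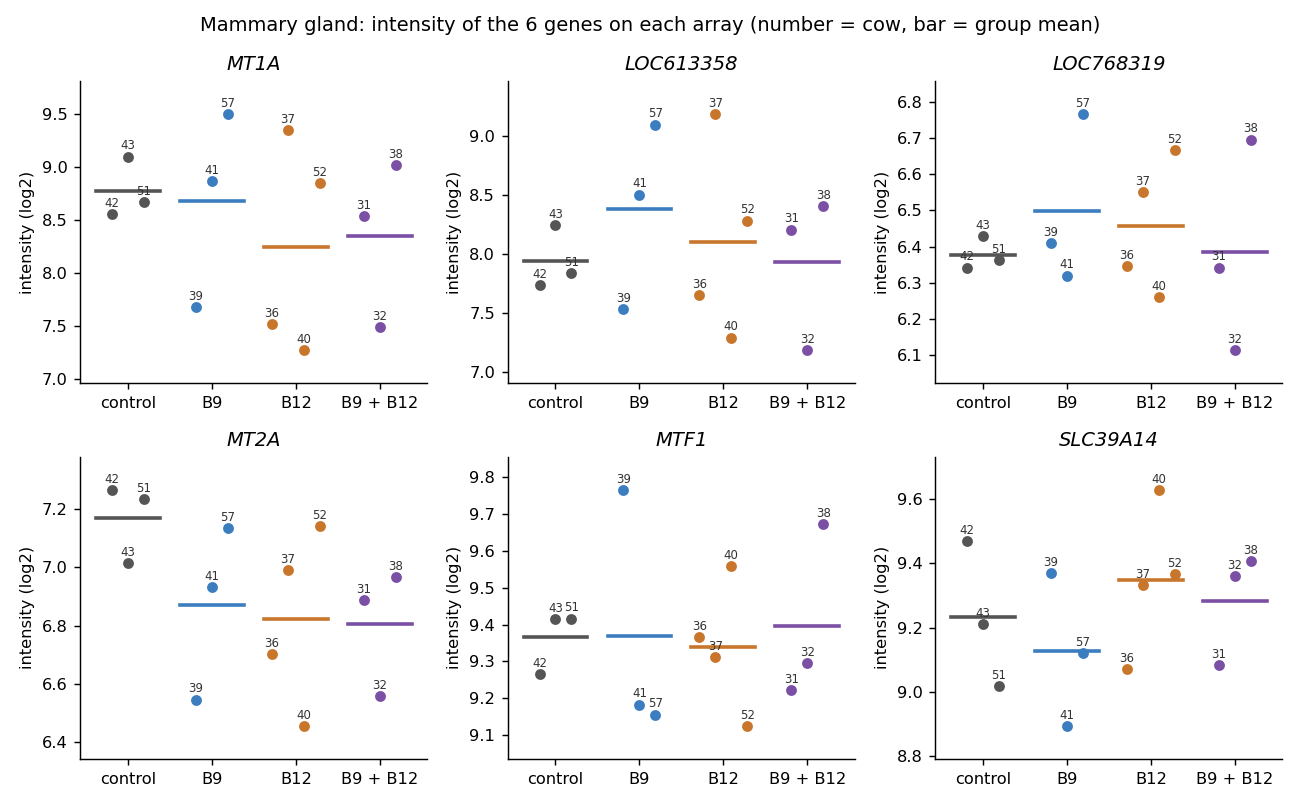
Mammary intensity (log2) of the brightest probe of each of the 6 genes on each of the 13 arrays, by treatment; the number beside a point is the cow and the bar is the group mean. The vertical axis differs between genes. MT1A lies between 8.56 and 9.10 in control cows and between 7.28 and 9.50 in treated cows, so that the groups overlap for this gene.

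The rule did not use the comparison of tissues, and 5 of the 6 genes passed the test there. For it, the arrays of both tissues were normalized together. Limma called 10 of the 12 member probes, all higher in hepatic tissue, where 18.7% of all probes were called, 8.80% higher and 9.89% lower. MT1A had a mean of 15.73 ± 1.78 (SD, n = 12) in hepatic tissue and 9.07 ± 0.84 (SD, n = 13) in mammary tissue. The difference, averaged over the 4 treatments, was 6.51 (standard error 0.37, 90.9-fold, adjusted p = 4.73e-12 by limma). Within the 12 cows with both tissues the hepatic value exceeded the mammary one by 2.65 to 8.39 with a median of 7.19, and the lowest difference was that of a cow of the B9 + B12 group, cow 38. Every hepatic array lay above every mammary array. Without cows 32 and 57, whose hepatic arrays stood apart, the difference was 6.09, and with the slide as a fixed block it was 5.37. It was 7.83 with quantiles within each tissue and 7.99 in the authors' table, so that the settings ran from 5.37 to 7.99.

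The other metallothioneins were also higher in hepatic tissue in 12 of 12 cows. LOC613358 differed by 6.61 (standard error 0.32, adjusted p = 2.89e-13), MT2A by 5.04 (standard error 0.31, adjusted p = 1.63e-11) and LOC768319 by 4.92 (standard error 0.26, adjusted p = 1.23e-12), all by limma. Exact sign-change permutation tests over the 12 cows, two-sided, gave p = 0.000488 for each of the 4 genes, the smallest that 12 cows allow. The within-cow difference of LOC768319 ran from 1.99 to 8.04, a wider range than the 2.99 to 6.91 of MT2A. The size of the difference depended on the setting for MT2A, from 3.60 with the slide as a fixed block to 6.79 in the authors' table.

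SLC39A14 was 7.48-fold higher in hepatic tissue, with a difference of 2.90 (standard error 0.08, adjusted p = 4.63e-17 by limma). Its within-cow difference was narrow, from 2.53 to 3.44, and its other 4 probes differed by 1.11 to 2.87. The difference was 2.36 as the mean of its probes, 4.54 with quantiles within each tissue and 4.62 in the authors' table. MTF1 differed by −0.70 (standard error 0.08, adjusted p = 1.97e-07 by limma), lower in hepatic tissue in 12 of 12 cows but by less than 2-fold. The direction of MTF1 depended on the scaling. Its difference was 0.63 with quantiles within each tissue and 0.66 in the authors' table, which was normalized separately for each tissue, and the median difference of all probes was then 0.38 and 0.56, against −0.03 with both tissues together. Relative to that median, MTF1 was at −0.67 with both tissues together, and at 0.23 when each array was scaled by its 75th percentile. Its second probe was near background in the mammary gland, where 1 of 13 arrays measured it well above background, and differed by 0.04.

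**Figure D5:**
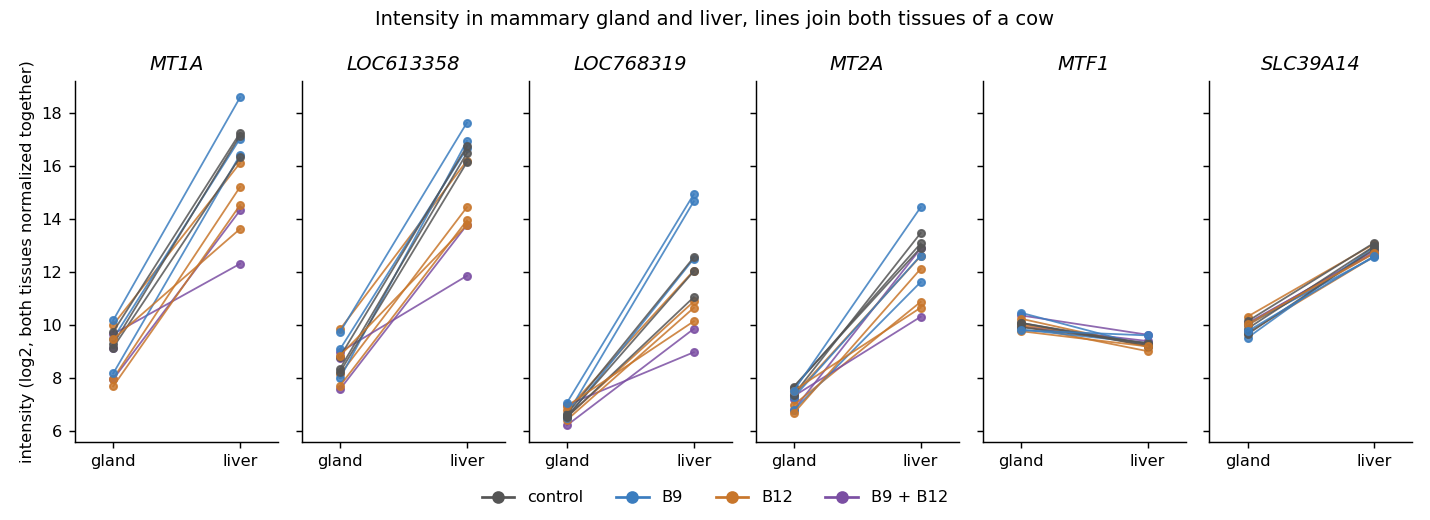
Intensity (log2, both tissues normalized together) of the 6 genes in the mammary gland and in the liver, where a line joins both tissues of a cow and the colour gives the treatment. All lines of the 4 metallothioneins and of SLC39A14 go up toward the liver, and those of MTF1 go down by 0.19 to 1.26, a direction that turns with quantiles within each tissue and in the authors' table.

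Among the zinc transporters, 16 genes were measured and 5 were called between the tissues, 2 higher and 3 lower in hepatic tissue, where 8.80% of all probes were higher and 9.89% lower. These small counts are of genes by their brightest probe, whereas the shares are over all probes. Nothing particular to zinc transporters is read from them. The 2 called higher were SLC39A14 and SLC30A10. SLC30A10, an exporter known mainly for carrying manganese, had a mean of 8.02 in hepatic tissue and was not well above background on any mammary array, where it has only a bound, and it was called higher in hepatic tissue (adjusted p = 2.63e-13 by limma). SLC30A2, the exporter that loads zinc into milk vesicles, differed by −3.92 (standard error 0.13, adjusted p = 8.06e-16 by limma) and was well above background on 4 of 12 hepatic arrays against 13 of 13 mammary arrays. SLC30A7, a Golgi zinc transporter, differed by −1.68 and SLC39A7, which releases zinc from the endoplasmic reticulum, by −1.39. The 11 transporters not called lay between −0.79 and 0.64. This range counts SLC39A4, not well above background on any mammary array, and SLC39A12, not well above it on any hepatic array. The differences of these genes are only bounds.

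For the other lists the counts of calls between the tissues are a description, to be set against the 8.80% of all probes called higher and the 9.89% called lower in hepatic tissue. No list was tested as a group, and values in parentheses are the log2 differences of single genes. MT3 differed by −0.15 and was not called, and MT4 was not well above background in either tissue. Of 8 copper handling genes, SOD1 (1.67) and ATOX1 (1.08), a copper-using dismutase and a copper chaperone, were called higher in hepatic tissue and the copper transporter SLC31A2 (−6.00) lower. Of 9 iron handling genes, 6 were called, all higher in hepatic tissue, led by the iron carrier transferrin (TF, 10.64) and the iron hormone hepcidin (HAMP, 6.36, well above background on 5 of 13 mammary arrays). Of 11 oxidative stress genes, 4 were called, all higher in hepatic tissue, with catalase (CAT, 6.03) and heme oxygenase (HMOX1, 3.01) the highest. Of 9 enzymes that need zinc, 6 were called higher and 1, the matrix protease MMP2 (−1.56), lower. SORD, a sorbitol dehydrogenase, differed by 4.45, and the carbonic anhydrase CA3, called higher in hepatic tissue with a mean of 12.76 there, was not well above background on any mammary array.

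The lists tied to inflammation and glucocorticoids are described in the same way, beside 8.80% and 9.89% of all probes. Of 16 acute phase genes, 13 were called higher, led by fibrinogen alpha (FGA, 11.52, well above background on 9 of 13 mammary arrays) and orosomucoid (ORM1, 11.24), and CEBPB (−1.14) lower. Of 11 glucocorticoid-responsive genes, 5 were called higher, led by PCK1 (9.68), the gluconeogenic enzyme, and HSD11B1 (8.10), which regenerates cortisol, and FKBP5 (−3.14) lower. In the mammary comparisons and in hepatic B9, 0 genes of these lists were called by limma.

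The hepatic and the mammary value of a gene were also set against each other across the 12 cows that gave both, for the 6 genes. For MT1A, Pearson's r was 0.29 (permutation p = 0.367, adjusted p = 0.679) and Spearman's rho was 0.42 (permutation p = 0.177, adjusted p = 0.554). Without cows 38 and 52, the farthest from the median in hepatic tissue, r was 0.83, and over deviations from the group means of all 12 cows it was 0.08. With the 2 farthest cows of each gene left out in the same way, r was 0.67 for LOC613358, 0.62 for MT2A, −0.20 for MTF1, −0.21 for LOC768319 and −0.37 for SLC39A14. None of the 6 relations passed after adjustment, and r over all cows lay between −0.0022, for MTF1, and 0.29.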

How the data were processed

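Hepatic and mammary RNA of 13 cows had been hybridised by the authors to 25 single-colour Agilent bovine arrays on 8 slides. The deposited scanner files hold spot intensity values, as medians over pixels for signal and local background, not normalized between arrays, from Agilent Feature Extraction 10.7.3.1 per the file headers (the submitters' processing notes name 9.1). The deposited table of log2 values had been background corrected by normexp and normalized between arrays of each tissue by the authors.

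Here, median signals were corrected with normexp (offset 50) and quantile normalized within tissue, or over both tissues for the comparison of tissues. Outlier spots were dropped, and repeated spots of a probe averaged. The 43653 probes were fitted with limma 3.58.1 (R 4.3.3) on all arrays of a tissue, or on all 25, and p-values were adjusted over all probes by Benjamini-Hochberg. Cyber-T, the test of the study's methods, used a window of 101 probes and a prior weight of 10. Exact tests permuted arrays, and correlations used 100000 permutations. The procedure was tested on simulated data for the direction and size of known shifts. The simulated noise was independent between arrays, so slide and array effects were not covered.

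Array names of 53.9% of probes were paired with symbols through a RefSeq gene table (assembly ARS-UCD2.0), and other probes are unnamed. Members, lists and naming rules were chosen with earlier results of these data known. All member genes are named. Of other lists, genes called with a treatment (0 were) and, between tissues, the 2 highest and 2 lowest called (3 and 3 for zinc transporters) are named, as are the 5 genes per tissue whose deviations from group means correlated best with those of MT1A, among probes well above background on all its arrays. Each array is 1 cow, so p-values measure a spread in which differences between cows and between arrays cannot be told apart. The number of arrays limits the precision. For a probe not well above background on any array of a tissue, no fold is given. Alternatives covered background correction, scaling, outlier spots, dim probes, slide, cow, test, probe choice and left-out arrays. The offset of 16 and the settings without cows 32 and 57 or slide 8 were added after the data were seen. For the pairing of tissues by cow, deviations from group means correlated between −0.28 and 0.30 (median 0.02), and over 0.1 in 2 of 12 cows. No saturated spot was found.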

Additional observations from a re-analysis of the deposited data

How the results depend on the processing

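The number of member genes called was the same under every alternative run, 0 for hepatic B9 and for the 3 mammary comparisons and 5 between the tissues. In hepatic B9 and the mammary comparisons limma called 0% of all probes in the main fit. A count of 0 there is thus no result about the members. With the cow as a replicate block, which pairs the tissues of an animal, 5 genes were called and MT1A differed by 6.51 as a random block and by 6.53 as a fixed one. Leaving out 1 array at a time, the hepatic MT1A difference ranged from −2.09 to −1.37 with B12 and from −4.28 to −2.19 with B9 + B12, the ends of the latter being the values without cow 32 and without cow 38. Hepatic SLC39A14 with B9 + B12 went from −0.24 to 0.012 in the processed signal of the image software scaled by the 75th percentile. The cause was not tested, and that scaling moved the median of all probes in this comparison to 0.12, and 75th percentile scaling of the corrected signal moved it to 0.27. The fit with slides as a fixed block left 2 residual degrees of freedom in hepatic tissue. In hepatic B9, where no member was called, MT1A and MTF1 turned sign without cow 57 (−0.15 and −0.01), and MT2A without cow 39 (0.35) and with slides as a fixed block (2.13), under which MT1A was 1.98. In the mammary comparisons, where no member was called, each member other than MT2A turned sign in at least 1 comparison under some alternative, and MT1A did so with B9 without cow 39 (0.41) and with B9 + B12 without cow 32 (0.0013). SLC30A1 had no probe, and 2 arrays of hepatic B9 + B12 carry every value of that group.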
